A study of Bos taurus with 8 samples.

Results

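Translation initiation factors are the proteins that bring the initiator tRNA, the messenger RNA and the ribosomal subunits together at a start codon. The platform held 75 probes for 50 gene symbols of this family, out of 43794 probes and 15227 symbols. Members were taken by symbol, as every gene named EIF1 to EIF6 with any suffix except the Y-linked EIF1AY. After a filter on dim probes, 69 probes of 47 genes were kept, out of 32923 kept probes and 12602 genes. EIF2C2 and EIF2C3 are older symbols of the Argonaute genes AGO2 and AGO3, which act in RNA silencing, so they were described apart and 45 initiation factor genes with 67 kept probes remained.

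The tested embryos were Bos taurus blastocysts produced in vitro and grown in synthetic oviductal fluid with 0.01 mM AAPH, a compound that breaks down into free radicals, from day 3 to day 7. The controls were blastocysts grown in the same media without AAPH. Both were made from oocytes of slaughterhouse ovaries, matured and fertilized in vitro, and collected 196 h after fertilization in pools of 10 whole embryos; the labels give neither embryo sex nor parentage. Amplified RNA of 4 AAPH pools and 4 control pools was compared on 8 two-colour arrays, 4 with AAPH RNA in Cy5 and 4 with it in Cy3.

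Arrays of opposite dye orientation were joined into 4 swap pairs, each holding 1 AAPH pool and 1 control pool, and the pairing was derived from the data because the labels do not give it. Signals are log2 array intensities, and ratios are log2 of AAPH over control, so a positive ratio is a higher signal in AAPH pools. The number of probes above background ran from 17296 to 34778 over the arrays for AAPH RNA and from 15956 to 36065 for control RNA. All 11 blastocyst markers were detected in both, which means above background on at least 4 of 8 arrays in each RNA. Of the 11, 7 were above background on all arrays in both. CDX2 was above it on 4 of 8 arrays for AAPH RNA and 5 for control RNA. Summed log2 levels of the 11 were 16.2 to 16.5 in AAPH pools and 16.3 to 16.6 in control pools. All 9 connective tissue markers were detected in both. Of these, 8 had higher signal in AAPH pools at an unadjusted p under 0.05, beside 7.67% of all genes. None passed at an adjusted p of 0.05, and limma's smallest adjusted p among them was 0.143. The median log2 ratio of the 9 was 0.75, and LUM, VIM and COL3A1 had the largest, at 2.86, 1.86 and 1.62. Summed levels were 15.3 to 16.2 in AAPH pools and 15.3 to 15.5 in control pools. Much of each sum came from FN1, the marker that was not higher (mean log2 signal 15.1 in both, ratio -0.02). The sums therefore understate the differences of the other markers. Of 6 cumulus markers, 2 were higher in AAPH pools at an unadjusted p under 0.05, beside the same 7.67% of all genes. Their smallest adjusted p from limma was 0.267. Summed levels of the 6 were 10.5 to 11.6 in AAPH pools and 10.3 to 10.8 in control pools. Of 6 sperm markers, 3 were kept. The part of these cells in the results on initiation factors was not tested.

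Initiation begins when EIF2, bound to GTP and initiator tRNA, joins the small ribosomal subunit with EIF1, EIF3 and EIF5. EIF4E, EIF4G and the helicase EIF4A then bring in capped messenger RNA, EIF2B recharges EIF2 with GTP, and EIF5B joins the subunits. Stress kinases phosphorylate EIF2 and so slow most initiation, which is known as the integrated stress response.

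No initiation factor passed the test across all probes. The limma test with Benjamini-Hochberg adjustment called 0 of 32923 kept probes at an adjusted p of 0.05, a background of 0%, and 4440 of them had an unadjusted p under 0.05. Of the 45 initiation factor genes, each read from its brightest kept probe, 22 had higher and 23 lower mean signal in AAPH pools. Their median log2 ratio was -0.01, with medians of -0.02, 0.06, 0.04 and -0.04 in swap pairs 1 to 4, and the median over all genes was 0.01. The ratios ran from -0.42 for EIF4A1 to 0.55 for EIF2S3, and the smallest adjusted p among them was 0.230.

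At an unadjusted p under 0.05, 3 of the 45 genes were higher in AAPH pools (EIF2AK4, EIF2S3 and EIF3E), against 7.67% of all genes. By the same measure 2 were lower (EIF4A1 and EIF4A3), against 7.36% of all genes. EIF2AK4, EIF3E, EIF4B and EIF4G2 were higher in every swap pair, 4 of 45 genes beside 12.5% of all genes. EIF2B2, EIF2S2 and EIF4A3 were lower in every swap pair, 3 of 45 beside 9.5% of all genes. Each pair averages the dye orientations, and EIF4B and EIF4G2 changed sign between them. EIF4B had 0.37 with AAPH RNA in Cy5 and -0.04 with it in Cy3, and EIF4G2 had 0.26 and -0.09. EIF3E had 0.29 and 0.09, and EIF2AK4 and the 3 lower genes also kept their sign. In 0 of 45 genes did the AAPH and control levels separate without overlap, beside 1.93% of all genes. These counts lie near or below the background, so they do not set the family apart from other genes. In pools of whole embryos, fewer cells of a type and less RNA per cell cannot be told apart.

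**Figure D1:**
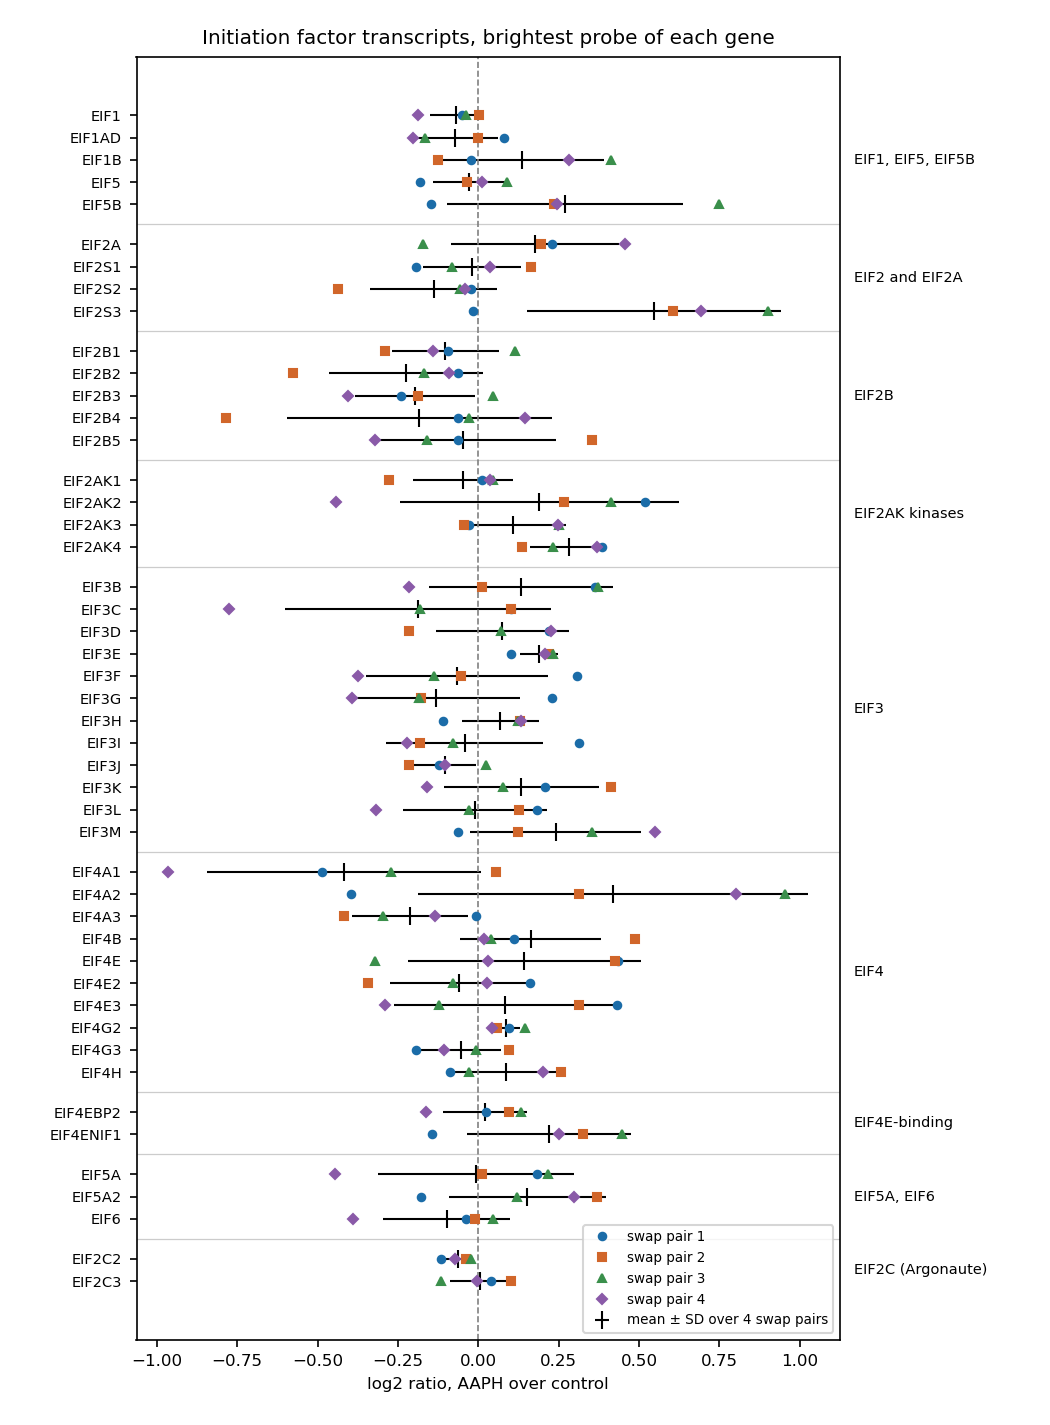
Log2 ratio of AAPH over control for each gene of the family, read from its brightest kept probe, with points for the swap pairs and a mark for their mean. The means run from -0.42 for EIF4A1 to 0.55 for EIF2S3, and the points of most genes lie on both sides of 0.

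The 4 kinases that phosphorylate EIF2 had a median log2 ratio of 0.15, with medians of 0.20, 0.05, 0.24 and 0.14 in swap pairs 1 to 4. EIF2AK4, also called GCN2, senses uncharged tRNA during amino acid shortage. Its log2 signal was 11.29, 11.33, 11.90 and 12.03 in the AAPH pools of swap pairs 1 to 4, against 10.90, 11.20, 11.67 and 11.66 in the control pools. AAPH was the higher in every pair, while the levels of the groups overlapped. The mean log2 ratio was 0.28 ± 0.12 (SD, n = 4), a 1.21-fold difference with a 95% interval of 0.11 to 0.45, and limma's adjusted p was 0.230. The ratio was 0.27 on the arrays with AAPH RNA in Cy5 and 0.29 on those with it in Cy3. With median centring of the arrays in place of loess it was 0.18, and its unadjusted p was no longer under 0.05.

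The other kinases varied more between pairs. EIF2AK2, or PKR, which binds double-stranded RNA, had log2 ratios of 0.52, 0.27, 0.41 and -0.44, a mean of 0.19 ± 0.43. In pair 4 its signal was near background, at 6.82 for AAPH and 7.26 for control. There it was above background on 0 of 2 arrays for AAPH RNA and 1 for control RNA. EIF2AK3, or PERK, the kinase of the endoplasmic reticulum, had ratios of -0.03, -0.04, 0.25 and 0.25, a mean of 0.11 ± 0.17. EIF2AK1, which senses heme, was above background on 5 of 8 arrays in each RNA, and its ratios of 0.01, -0.28, 0.04 and 0.04 averaged -0.05 ± 0.16. None of these 3 kinases differed by more than the spread between pairs.

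EIF2 itself is built of 3 subunits. EIF2S3, the gamma subunit, binds GTP and the initiator tRNA and is encoded on the X chromosome. Its log2 signal was 11.60, 12.00, 11.96 and 11.44 in the AAPH pools, against 11.61, 11.40, 11.06 and 10.75 in the control pools. AAPH was higher in swap pairs 2 to 4 and level with control in pair 1, and the groups overlapped. The mean log2 ratio was 0.55 ± 0.39 (SD, n = 4), a 1.46-fold difference with a 95% interval of 0.19 to 0.90 and limma's adjusted p = 0.250. Within slide 26 the ratio was 0.29, and the unadjusted p was no longer under 0.05.

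Embryo sex was not labelled, so sex-linked transcripts were read beside EIF2S3. XIST, the RNA of the inactive X chromosome, had log2 ratios of -0.19, 1.59, -0.87 and 0.71 in swap pairs 1 to 4, and the Y-linked EIF1AY had ratios of 0.00, -0.55, 0.16 and -0.54. Of the other Y-linked genes read, DDX3Y had ratios of -0.03, 0.15, 0.02 and 0.07, SRY of -0.01, 0.16, 0.01 and 0.03, and ZFY of -0.03, -0.03, 0.37 and 0.13. The ratios of EIF2S3 were -0.02, 0.61, 0.90 and 0.69 in the same pairs. XIST and EIF2S3 were both higher in the AAPH pool in pairs 2 and 4, and differed in direction in pair 3. XIST and EIF1AY went in opposite directions in pairs 2 to 4. The Y-linked genes did not move together, but all had low signal. Their mean log2 signals in control pools were 6.95 for SRY, 6.81 for ZFY, 7.24 for EIF1AY and 7.44 for DDX3Y. ZFY was above background on 6 of 8 arrays for AAPH RNA and 4 for control RNA. Signal this near background limits what the ratios of the Y-linked genes show. The part of embryo sex in the EIF2S3 ratio was not tested.

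The other subunits lay closer to 0. EIF2S1, the alpha subunit that the kinases phosphorylate, had log2 signals of 13.03, 13.09, 12.83 and 12.80 in the AAPH pools, against 13.22, 12.93, 12.91 and 12.77 in the control pools. Its mean log2 ratio was -0.02 ± 0.15, with a 95% interval of -0.21 to 0.17. EIF2S2, the beta subunit, was lower in every pair (-0.02, -0.44, -0.06 and -0.04), a mean of -0.14 ± 0.20, and most of that mean came from pair 2. EIF2A, a separate protein that can also deliver initiator tRNA, had a mean log2 ratio of 0.18 ± 0.26. The median of the 4 genes was 0.08.

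EIF2B exchanges GDP for GTP on EIF2 and is the enzyme that phosphorylated EIF2 blocks. Read from their brightest probes, all 5 subunit genes had a lower mean signal in AAPH pools. Their median log2 ratio was -0.18, with medians of -0.06, -0.29, -0.03 and -0.14 in swap pairs 1 to 4. None passed at an unadjusted p under 0.05. EIF2B3 had ratios of -0.24, -0.19, 0.04 and -0.41 (mean -0.20 ± 0.19, limma's adjusted p = 0.391), and EIF2B2 had ratios of -0.06, -0.58, -0.17 and -0.09 (mean -0.23 ± 0.24). EIF2B4 averaged -0.18 ± 0.41, EIF2B1 -0.10 ± 0.17 and EIF2B5, the catalytic subunit, -0.05 ± 0.29. The direction of EIF2B5 depended on the probe. Its brightest probe had ratios of -0.06, 0.35, -0.16 and -0.32, while both other kept probes were higher in every pair. EMBV3_41878 had 0.44, 0.26, 0.23 and 0.52, a mean of 0.37 ± 0.14 with limma's adjusted p = 0.182, and EMBV3_00762 averaged 0.13 ± 0.03. With the mean of a gene's kept probes the EIF2B5 ratio changed sign. The other kept probes of EIF2B2 averaged -0.30 ± 0.25 and 0.07 ± 0.13.

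**Figure D2:**
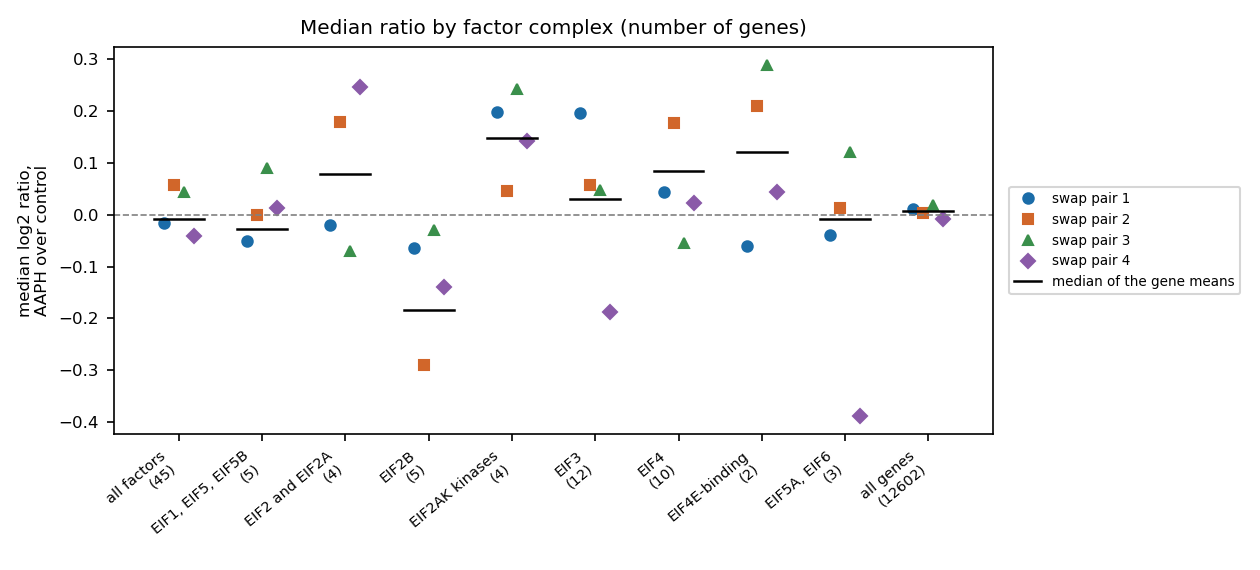
Median log2 ratio of AAPH over control in each swap pair (points) and of the gene means (lines), by complex, with the number of genes in brackets. The EIF2B median lies below 0 and the EIF2AK median above 0 in all 4 swap pairs, whereas the EIF3 medians run from -0.19 to 0.20.

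EIF3 is the largest initiation factor and holds the small subunit ready for messenger RNA. Of its 12 measured genes 6 were higher and 6 lower, with a median log2 ratio of 0.03 and medians of 0.20, 0.06, 0.05 and -0.19 in swap pairs 1 to 4. EIF3E had log2 signals of 14.70, 14.84, 15.02 and 14.96 in the AAPH pools, against 14.60, 14.62, 14.79 and 14.75 in the control pools. AAPH was higher in every pair by a small amount, and the groups overlapped. The mean log2 ratio was 0.19 ± 0.06 (SD, n = 4), with limma's adjusted p = 0.296, and it was 0.06 with median centring, where the unadjusted p was no longer under 0.05. EIF3M, another subunit, had ratios of -0.06, 0.12, 0.35 and 0.55, a mean of 0.24 ± 0.27. EIF3J, a loosely bound subunit, had ratios of -0.12, -0.22, 0.02 and -0.10, a mean of -0.10 ± 0.10. The remaining subunits averaged between -0.19 (EIF3C) and 0.13 (EIF3K), each with pairs on both sides of 0.

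The EIF4 group binds the cap and unwinds the leader of the messenger RNA. Its 10 genes had a median log2 ratio of 0.08, but the helicase genes spread widely. EIF4A1, the main helicase, had log2 signals of 11.18, 11.09, 10.21 and 10.91 in the AAPH pools, against 11.67, 11.04, 10.48 and 11.88 in the control pools. AAPH was lower in swap pairs 1, 3 and 4 and level with control in pair 2, and the groups overlapped. The mean log2 ratio was -0.42 ± 0.43 (SD, n = 4), with a 95% interval of -0.80 to -0.03 and limma's adjusted p = 0.349. Without swap pair 4 the ratio was -0.24, and within slide 26 it was -0.22, neither with an unadjusted p under 0.05.

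EIF4A2 is a close paralog of EIF4A1, and it was singled out after its values were seen. Its log2 signals were 8.82, 9.47, 9.83 and 9.99 in the AAPH pools, against 9.22, 9.16, 8.88 and 9.19 in the control pools. AAPH was higher in swap pairs 2 to 4 and lower in pair 1. The mean log2 ratio was 0.42 ± 0.61, with limma's adjusted p = 0.458, so the difference was smaller than the spread between pairs. Whether the probes of these paralogs bind each other's RNA was not tested.

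EIF4A3 is a related helicase that works in the exon junction complex on spliced messenger RNA. It had log2 signals of 10.54, 10.12, 9.16 and 9.18 in the AAPH pools, against 10.55, 10.53, 9.45 and 9.32 in the control pools. AAPH was lower in every pair, by almost nothing in pair 1, and the groups overlapped. The mean log2 ratio was -0.21 ± 0.18 (limma's adjusted p = 0.361), and its unadjusted p was no longer under 0.05 in 9 of 17 alternatives.

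Of the genes around the cap, EIF4E, the cap-binding protein, had ratios of 0.43, 0.43, -0.32 and 0.03, a mean of 0.14 ± 0.36. EIF4ENIF1, which carries EIF4E into the nucleus and represses bound messages, had ratios of -0.14, 0.32, 0.45 and 0.25, a mean of 0.22 ± 0.26. EIF4G2, a scaffold used without the cap-binding protein, was higher in every pair by a mean log2 ratio of 0.08 ± 0.05. Its sign differed between the dye orientations. EIF4EBP1, the repressor of EIF4E controlled by mTOR, was not kept: its probes exceeded background on at most 2 of 8 arrays for the AAPH pools and 1 for the control pools. EIF4E1B, known as an oocyte form of EIF4E, was not kept either, and neither was EIF2C1. EIF1AX, EIF3A, EIF4EBP3 and EIF4G1 had no probe under their RefSeq symbols and were not analysed here.

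Start codon selection and subunit joining were represented by 5 genes, with a median log2 ratio of -0.03. EIF5B, the GTPase of subunit joining, had ratios of -0.15, 0.23, 0.75 and 0.24, a mean of 0.27 ± 0.37. Of the later-acting genes, EIF5A, which carries hypusine and helps elongation, had ratios of 0.18, 0.01, 0.22 and -0.45, a mean of -0.01 ± 0.30. Its paralog EIF5A2 had ratios of -0.18, 0.37, 0.12 and 0.30, a mean of 0.15 ± 0.24. EIF6, which keeps free large subunits from joining, had ratios of -0.04, -0.01, 0.05 and -0.39, a mean of -0.10 ± 0.20. Of the Argonaute genes, EIF2C2 had ratios of -0.12, -0.04, -0.02 and -0.07, a mean of -0.06 ± 0.04, and EIF2C3 had a mean of 0.00 ± 0.09.

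**Figure D3:**
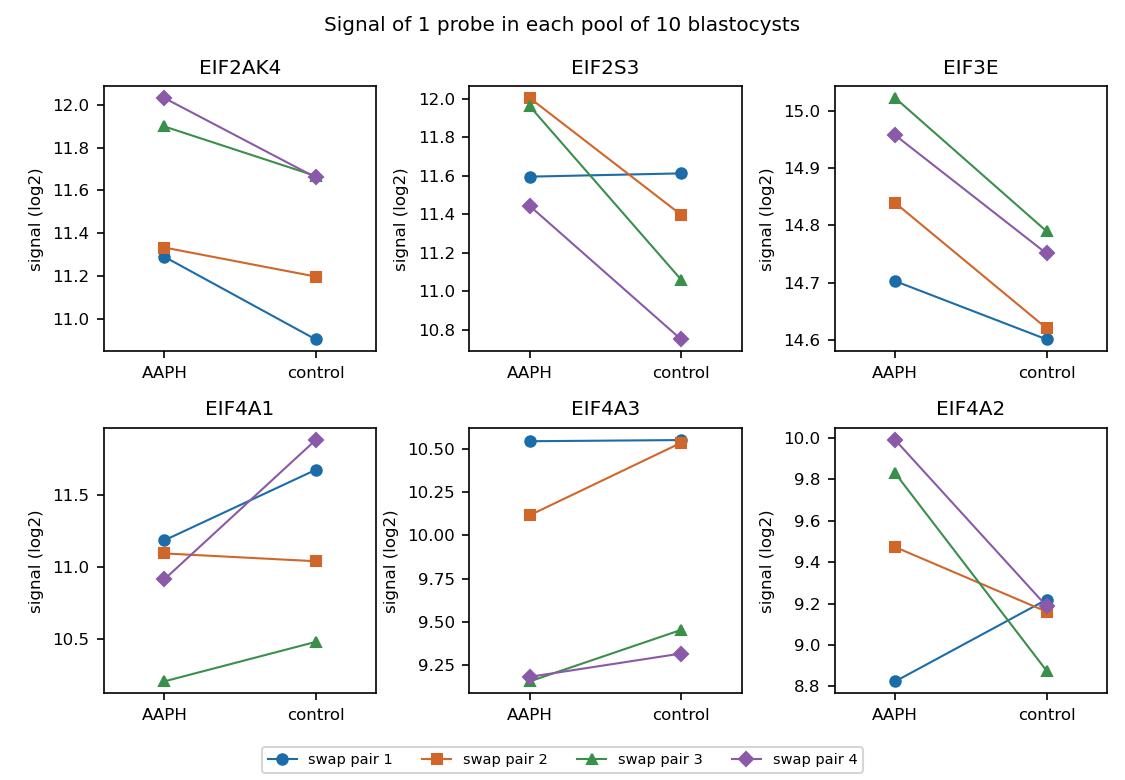
Log2 signal of single probes in each AAPH pool (left in each panel) and each control pool (right), with lines joining the pools of a swap pair. EIF2AK4 and EIF3E are higher in AAPH pools in every pair, and the levels of the groups overlap.

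Genes with more than one kept probe gave a check on the brightest probe, added after the data were seen. The initiation factors had 22 other kept probes, in 15 genes, and 15 of the 22 were lower in AAPH pools, with a median log2 ratio of -0.16. That is 68.2%, against 54.7% of the other kept probes of all genes, whose median was -0.01. Probes of the same gene are not independent. At an unadjusted p under 0.05, 7 of the 22 were lower, which is 31.8%, against 8.1% of the other kept probes of all genes. By the same measure 1 was higher, against 4.44% of the other kept probes of all genes. Over all 67 kept probes of the factors 9 were lower and 4 higher, beside 7.78% and 5.7% of all kept probes. None of them passed at the adjusted threshold. In 13 of the 15 genes the dimmer probes had, by their median, the same sign as the brightest one, and EIF2B5 and EIF4H had the opposite sign.

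The lower probes lay in 6 genes. EIF4E2, a cap-binding repressor of translation, had 2 of them. One, EMBV3_17706, had log2 signals of 9.54, 8.87, 8.93 and 9.13 in the AAPH pools, against 9.64, 9.70, 9.64 and 9.62 in the control pools. All AAPH pools were below all control pools, with a mean log2 ratio of -0.53 ± 0.32 and limma's adjusted p = 0.217. Read from the brightest probe of each gene, 1.93% of all genes showed no overlap. The ratio of EMBV3_17706 depended on the dye, at -1.02 on the arrays with AAPH RNA in Cy5 and -0.03 on those with it in Cy3. The other, EMBV3_19809, had a mean ratio of -0.58 ± 0.33 (limma's adjusted p = 0.204), with -0.93 in the Cy5 and -0.22 in the Cy3 orientation. The brightest EIF4E2 probe had -0.06 ± 0.21.

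EIF6 and EIF1 also had a lower dimmer probe. The EIF6 probe EMBV3_29549 had log2 signals of 12.07, 11.44, 11.06 and 10.64 in the AAPH pools, against 12.31, 11.95, 11.54 and 11.06 in the control pools. AAPH was lower in every pair, the groups overlapped, and the mean log2 ratio was -0.41 ± 0.12 with limma's adjusted p = 0.166. This EIF6 ratio was -0.44 on the arrays with AAPH RNA in Cy5 and -0.38 on those with it in Cy3. The EIF1 probe EMBV3_27362 had a mean ratio of -0.42 ± 0.33, against -0.07 ± 0.08 for the brightest probe of that start codon selection factor. That brightest probe had log2 signals of 15.03 to 15.22 over all pools. Whether ratios were compressed at signals this high was not tested. For EIF5A, EIF3F and EIF2B2 the lower probes had mean ratios of -0.41 ± 0.27, -0.36 ± 0.25 and -0.30 ± 0.25. Which transcripts or transcript ends the probes of one gene read was not tested.

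**Figure D4:**
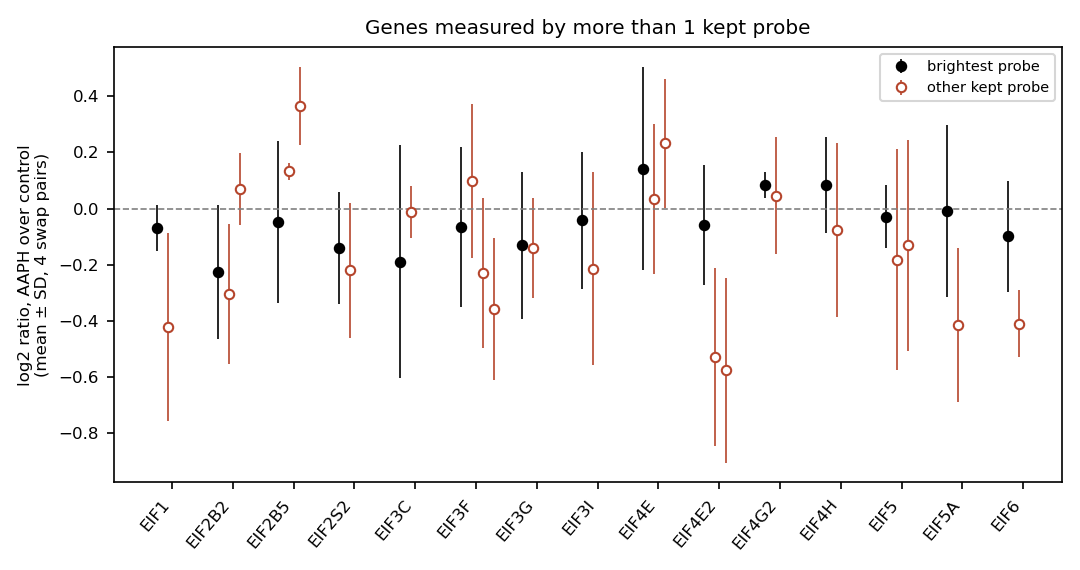
Mean log2 ratio of AAPH over control for each kept probe of the genes with more than one, with the brightest probe marked. Of the 22 other probes 15 lie below 0, beside 54.7% of the other kept probes of all genes. Those of EIF4E2 lie well below its brightest probe.

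Genes that act around initiation were counted from lists chosen with earlier results known. Of 16 measured elongation and release genes, 1 was higher and 1 lower at an unadjusted p under 0.05, beside 7.67% and 7.36% of all genes, with a median log2 ratio of -0.02. The lower one was LGTN, the older symbol of EIF2D, which can deliver tRNA to the ribosome, with ratios of -0.14, -0.39, -0.61 and -0.24 (mean -0.35 ± 0.20, limma's adjusted p = 0.242). The higher one was the ribosome rescue factor HBS1L, with a mean of 0.33 ± 0.24.

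Of 11 measured genes of the integrated stress response, 2 were higher and 2 lower by the same measure, beside the same 7.67% and 7.36% of all genes, with a median log2 ratio of -0.06. VLDLR, a lipoprotein receptor, averaged 0.32 ± 0.16 and lay near background, above it on 7 of 8 arrays for AAPH RNA and 5 for control RNA. CHAC1, a glutathione-degrading enzyme, averaged -0.35 ± 0.31. Its sign depended on the dye, with -0.97 on the arrays with AAPH RNA in Cy5 and 0.27 on those with it in Cy3. ATF4, the transcription factor whose translation rises when EIF2 is phosphorylated, averaged -0.10 ± 0.28, and its target DDIT3 averaged 0.03 ± 0.15. Of 17 measured genes that control cap-dependent initiation, 1 was higher and 0 were lower, beside 7.67% and 7.36% of all genes, with a median of -0.06. The higher one was PAIP1, a partner of the poly(A)-binding protein, at 0.33 ± 0.24 (limma's adjusted p = 0.281), and PDCD4, an inhibitor of EIF4A, averaged 0.35 ± 0.39.

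Precision was limited by the number of arrays. The 95% interval of an initiation factor's log2 ratio reached a median of 0.23 to either side of its mean, and from 0.14 to 0.53 over the 45 genes. Swap pairs 1 and 2 lay on slide 26, and pairs 3 and 4 on slides 78 and 79. The factors' median log2 ratio was 0.04 within slide 26 and -0.02 within slides 78 and 79.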

How the data were processed

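Scanner intensities of 8 two-colour arrays were deposited by the authors, and a deposited table held log2 ratios, whose normalization and centring are not given in the sources used here. The submitters' processing notes name limma. Against the scanner ratios the deposited table ran as AAPH over control on all arrays, and its column medians were -0.0135, -0.00863, 0.0117, 0.00944, -0.0152, 0.00799, -0.0188 and -0.0197.

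Mean foreground and median background intensities were corrected by normexp with an offset of 50 and normalized by loess within arrays, with control spots at weight 0 (limma 3.58.1, R 4.3.3). A probe was kept when its signal exceeded the median plus 3 median absolute deviations of 153 negative control spots on at least 4 of 8 arrays in either RNA. Levels were set by Aquantile normalization. Each swap pair was averaged and counted as 1 replicate (n = 4), and lmFit and eBayes tested the mean ratio against 0, with Benjamini-Hochberg adjustment over 32923 probes. The arrays were paired by the best of 24 pairings of opposite arrays. Correlations were taken over kept probes on each array's deviation from the mean of its dye orientation. By these, paired arrays correlated at 0.14 (pair 3) to 0.56, and other opposite arrays at -0.34 to 0.05. The pairing was to be used if every pair exceeded 0.1. It was chosen on these same correlations, so their contrast is no independent test of the pairing. Whether the pools stem from different fertilizations is not labelled, and the p-values then describe only how much these pools vary, which may be technical.

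A gene was read from its brightest kept probe. Genes given with their values in every pair were the 6 of smallest p in each direction, the smallest of each complex, and a set chosen for its roles. Of each pathway list the counts and the 2 genes of smallest p were given. The members and lists were chosen with earlier results of these data known. Gene symbols are those of the platform annotation; 46 members matched a RefSeq symbol and 4 a synonym. Tested on simulated data with 200 changed probes, the fit recovered 33.3%, 82.6% and 97.5% of log2 changes of 0.5, 1 and 2. Among simulated probes without a change, 5.64% fell below 0.05 before adjustment. The measured data differed from this setting, with 4440 of 32923 kept probes below 0.05 and 0 passing after adjustment. Even VIM, at a log2 ratio of 1.86, had limma's adjusted p = 0.143. The recovery rates therefore hold for the simulated data only, and do not give what these arrays could detect. Alternatives covered background correction, normalization, the dim-probe filter, pairing, slides, probe choice and leaving out each pair.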

Additional observations from a re-analysis of the deposited data

Results flagged for a closer look

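In 3 of 53 results the value of 1 swap pair stood far from the other pairs, measured by its gap relative to the range of the 4 pairs, where chance gives about 1 in 20. EIF2AK1 had a log2 ratio of -0.279 in swap pair 2, with the other pairs between 0.01 and 0.04. EIF2S2 had -0.436 in swap pair 2, with the other pairs between -0.06 and -0.02. EIF3H had -0.111 in swap pair 1, with the other pairs between 0.12 and 0.13.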

How the results depend on the processing

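The log2 ratios of EIF2AK4, EIF2S3, EIF3E, EIF4A1 and EIF4A3 kept their sign in all 17 alternatives, but were no longer under an unadjusted p of 0.05 in 1, 1, 7, 4 and 9 of them in that order. EIF3E was 0.06 with median centring, and EIF4A1 ranged from -0.62 to -0.22 (-0.24 without pair 4). Of the 22 genes named by rule, 7 changed sign in at least 1 alternative. The count of factors lower at an unadjusted p under 0.05 was 2 as reported, 8 with median centring (beside 11.4% of all genes), 5 with the mean of a gene's probes, 4 with the other pairing within slides, 1 with an offset of 16, a filter on all 8 arrays, a variance trend or slide as a block, and 0 within slide 26; leaving out a pair gave 0 to 2 (1 without pair 2 or 3, 0 without pair 4). The share of all genes lower ran over the alternatives from 5.09% within slide 26 to 12% with the other pairing. It was 6.63% with the mean of a gene's probes. The count of factors higher was 3 as reported, and 1 with median centring, beside 6.61% of all genes. It was 5 with slide as a block or within slide 26, beside 9.85% and 6.05% of all genes. It was 8 within slides 78 and 79 and 7 with the other pairing, beside 10.7% and 12%. Leaving out a pair gave 2 to 8 (8 without pair 1, beside 8.16%). With no replicate block, taking the arrays singly rather than as pairs, 934 probes passed the adjusted threshold. There 7 factors were higher, beside 11.1% of all genes. The other pairing gave 1079 probes, and EIF2AK4 passed in both (limma's adjusted p = 0.0395 and 0.0494). Without the block, arrays taken to share extracts count separately. The factors' median was 0.0396 within slide 26 and -0.00297 to 0.0462 with a pair left out, and the EIF4 median was -0.0232 with median centring and -0.0422 within slides 78 and 79. Of the other kept probes, 7 were lower as reported and 4 within slide 26 (4 to 10 over all alternatives). The 1 higher became 2 with median centring, no replicate block, a variance trend or slide as a block, and 3 with no filter, the authors' deposited table, the other pairing or within slide 26, and 1 to 2 with a pair left out. Among the other kept probes of all genes, the share lower ran from 5.05% to 13.4% over the alternatives. The share higher ran from 2.81% to 7.14%. The causes were not tested. Probes near background, such as those of EIF2AK1 and EIF4G3, limit what their ratios show. Whether ratios were compressed at the brightest probes, such as those of EIF1, EIF4G2, EIF3E and FN1, was not tested.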
